A study of Mus musculus with 9 samples.

Results

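ErbB receptors, neuregulin and GDNF signalling was followed through 9 genes, named one by one as ligands and receptors of glial growth factors and found by symbol among the 56289 genes of the expression table. They are the ligand genes Nrg1, Hbegf and Gdnf, the ErbB receptor genes Egfr, Erbb2, Erbb3 and Erbb4, and the GDNF receptor genes Gfra1 and Ret. RNA was sequenced from mouse cultures labelled RAW264.7, a macrophage-like line from a BALB/c mouse, in 3 groups of 3 libraries that the study calls biological replicates. The Con cultures are labelled untreated, and the study's section on drug treatment gives PBS to its control cells. The TNF-α cultures received 20 ng/ml recombinant human TNF-α for 24 h, and the TNF-α+WBT cultures received the same TNF-α with 1.0 μg/ml WBT for 24 h. WBT is Wang Bi tablet, a preparation of several herbal medicines. The labels write WBP for the third group, which was taken to be WBT. The depth of the libraries, estimated from their low values, was 16918000 to 26154000 fragments.

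ErbB receptors are receptor tyrosine kinases that work in pairs. Neuregulins bind ERBB3 or ERBB4, HB-EGF binds EGFR or ERBB4, ERBB2 has no known ligand of its own and serves as a partner, and ERBB3 has little kinase activity and signals through its partner. In the Schwann cell lineage, neuregulin-1 acting through ERBB2 and ERBB3 is needed for survival, proliferation and myelination. GDNF binds GFRα1, a co-receptor anchored to the outer membrane, which engages the receptor tyrosine kinase RET or, in cells without RET, the adhesion molecule NCAM. GDNF is made by Schwann cells, among others, and supports the survival of several kinds of neuron.

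The label of the cultures was set beside marker genes of several cell types. Of 14 macrophage genes, Cd14 alone lay above 1 FPKM in all 9 libraries, at 5.25 FPKM on average, where FPKM is the number of sequenced fragments divided by the length of the transcript and the depth of the library. Of the other defining macrophage genes, 7 were at 0 in every library (Adgre1, Itgam, Ptprc, Spi1, Ctss, Cybb and Tyrobp). Of 14 Schwann cell genes, 9 lay above 1 FPKM in all 9 libraries, with Ngfr the most abundant of these 14 at a mean of 124.7 FPKM. Of 11 fibroblast genes, 8 did, with Col1a1 the most abundant at a mean of 931.7 FPKM. The markers thus go against the label, and the libraries are called by their treatment only.

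In Con libraries the order of levels, on the FPKM scale, was Erbb3, Gdnf, Hbegf, Egfr, Erbb2, Gfra1, Nrg1, Erbb4 and Ret. The values of Hbegf and Egfr overlapped, and so did those of Erbb2 and Gfra1, while each of the other neighbours down to Nrg1 was separated in all 3 libraries. Erbb4 and Ret were at or near 0. With TNF-α, Nrg1 rose while Gdnf and Erbb3 fell, and Erbb2, Egfr, Hbegf and Gfra1 did not pass the test. With TNF-α+WBT the level of each member stood close to its level with TNF-α. Fewer cells of a type and less RNA per cell cannot be told apart in such bulk libraries.

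**Figure D1:**
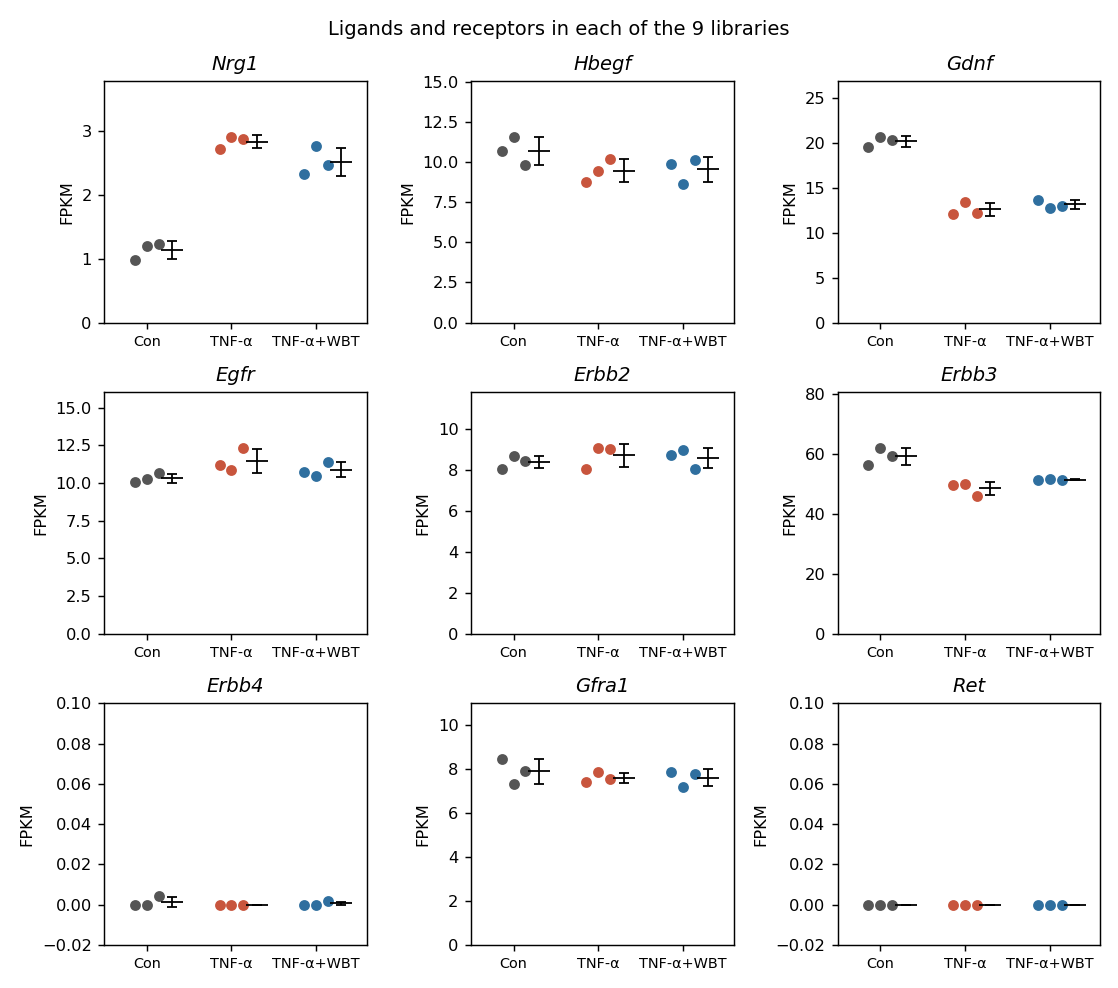
FPKM of the 9 members in each of the 9 libraries (points), with the mean and SD of each group of 3 (bars), 1 panel per gene and each vertical axis in FPKM. Nrg1 and Egfr are higher, and Gdnf and Erbb3 are lower, in all 3 TNF-α libraries than in all 3 Con libraries. Of these, Egfr did not pass the test.

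The comparison of TNF-α with Con asks what the cytokine does to the cultures. Of the 25417 genes tested with limma on log2(FPKM + 0.1), 746 (2.94%) were higher with TNF-α and 490 (1.93%) lower at a Benjamini-Hochberg adjusted p under 0.05, and 4088 had an unadjusted p under 0.05. The lower count was 325 without Con library 3, 316 without TNF-α library 2 and 324 without TNF-α library 3. Of the 9 members, 7 could be tested, 1 was higher (Nrg1) and 2 were lower (Gdnf and Erbb3). The median log2 fold change was −0.05 over the tested members and 0.00285 over all tested genes. By a second rule, taken from the study, a fold change over 2 together with p under 0.05, applied here to p before adjustment, 349 genes (1.37%) were higher, Nrg1 among them. That count depends on the pseudocount, with 88 genes at a pseudocount of 1 and 596 at 0.01, and it was 135 with a filter at a mean of 1 FPKM and 689 with voom on estimated fragments. At a pseudocount of 1 the log2 fold change of Nrg1 was 0.84, under a fold of 2, so Nrg1 no longer passed the second rule. Log2 fold changes on this scale understate the changes of genes with low values.

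Nrg1 encodes neuregulin-1, the ligand of ERBB3 and ERBB4. The gene (ENSMUSG00000062991) lies on chromosome 8 of GRCm38, from 31814551 to 32884029 on the minus strand. Its level was 0.977, 1.20 and 1.23 FPKM in Con libraries 1 to 3, 2.71, 2.91 and 2.88 FPKM with TNF-α, and 2.32, 2.76 and 2.46 FPKM with TNF-α+WBT. All 6 libraries of treated cultures lay above all 3 Con libraries, and the TNF-α and TNF-α+WBT libraries overlapped. Without a difference, 2 groups of 3 libraries separate fully, in either direction, with a probability of 0.1. How many of all genes separated was not counted, here or for the genes below. The mean rose from 1.14 ± 0.139 FPKM in Con to 2.83 ± 0.105 FPKM with TNF-α (SD, n = 3 libraries each), a ratio of 2.49. The log2 fold change was 1.25 with an SE of 0.13 and a 95% interval of 0.95 to 1.55 (adjusted p = 0.000822 by limma). The annotated transcripts, which made up 73.4% to 98.0% of these values, rested on an estimated 62.6 to 205 fragments per library.

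Gdnf encodes the ligand of GFRα1. The gene (ENSMUSG00000022144) lies on chromosome 15 from 7810846 to 7837575 on the plus strand. Its level was 19.5, 20.7 and 20.3 FPKM in Con, 12.1, 13.5 and 12.2 FPKM with TNF-α, and 13.7, 12.8 and 13.0 FPKM with TNF-α+WBT. Each Con library lay above each of the 6 libraries of treated cultures, among which the groups overlapped. The mean fell from 20.2 ± 0.591 FPKM in Con to 12.6 ± 0.758 FPKM with TNF-α (SD, n = 3 libraries each), 1.60-fold lower. The log2 fold change was −0.68 with an SE of 0.06 and a 95% interval of −0.80 to −0.55 (adjusted p = 0.000201 by limma).

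Hbegf encodes heparin-binding EGF-like growth factor, a membrane protein that is shed as a ligand of EGFR and ERBB4. Its level was 10.7, 11.6 and 9.79 FPKM in Con, 8.73, 9.44 and 10.2 FPKM with TNF-α, and 9.84, 8.64 and 10.1 FPKM with TNF-α+WBT. The 3 groups overlapped. The log2 fold change with TNF-α was −0.17, with a 95% interval of −0.38 to 0.03 (adjusted p = 0.401 by limma).

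Erbb3 encodes the neuregulin receptor with little kinase activity, and it was the most abundant of the members in every library. The gene (ENSMUSG00000018166) lies on chromosome 10 from 128567523 to 128589652 on the minus strand. Its level was 56.3, 62.1 and 59.2 FPKM in Con, 49.8, 50.01 and 46.1 FPKM with TNF-α, and 51.2, 51.6 and 51.4 FPKM with TNF-α+WBT. The 3 groups did not overlap, with Con highest and TNF-α lowest. The mean fell from 59.2 ± 2.87 FPKM in Con to 48.6 ± 2.17 FPKM with TNF-α (SD, n = 3 libraries each), 1.22-fold lower. The log2 fold change was −0.28 with an SE of 0.05 and a 95% interval of −0.39 to −0.18 (adjusted p = 0.00908 by limma). Without the intensity trend in limma the same change had an adjusted p of 0.0744, and over 20 alternatives the adjusted p ran from 0.00302 to 0.0744.

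Erbb2 encodes the partner without a ligand, and its level was 8.02, 8.64 and 8.44 FPKM in Con, 8.01, 9.06 and 8.99 FPKM with TNF-α, and 8.69, 8.95 and 8.02 FPKM with TNF-α+WBT. Its groups overlapped, and the log2 fold change with TNF-α was 0.05, with a 95% interval of −0.11 to 0.21 (adjusted p = 0.806 by limma). Egfr encodes the EGF receptor, and its level was 10.0, 10.2 and 10.6 FPKM in Con, 11.2, 10.8 and 12.3 FPKM with TNF-α, and 10.7, 10.5 and 11.4 FPKM with TNF-α+WBT. All 3 TNF-α libraries lay above all 3 Con libraries for Egfr, and the TNF-α+WBT libraries overlapped both. The log2 fold change of Egfr with TNF-α was 0.15, with a 95% interval of 0.01 to 0.29, and did not pass after adjustment over all genes (unadjusted p = 0.0427 and adjusted p = 0.287 by limma). In a voom model of estimated fragments the Egfr change was 0.19 with an adjusted p of 0.00862, within a range of 0.00862 to 0.563 over 20 alternatives.

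The ErbB receptors differed in level. Summed over Egfr, Erbb2, Erbb3 and Erbb4, the FPKM of a library ran from 74.4 to 80.9 in Con, from 67.4 to 69.9 with TNF-α and from 70.6 to 71.0 with TNF-α+WBT. Erbb3 held 75.6% to 76.7% of that sum in Con, 68.4% to 72.1% with TNF-α alone and 72.5% to 72.7% with TNF-α+WBT. The ratio of Erbb3 to Erbb2, the pair that forms the neuregulin receptor of Schwann cells, was 7.02 to 7.18 in Con, 5.13 to 6.21 with TNF-α alone and 5.76 to 6.41 with TNF-α+WBT. For both of these measures the Con libraries lay above all 6 libraries of treated cultures.

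Erbb4 encodes the other neuregulin receptor. It was at 0 FPKM in 7 of the 9 libraries, at 0.00409 FPKM in Con library 3 and at 0.00163 FPKM in TNF-α+WBT library 3, which is at most 1 estimated fragment. A count of 0 allows up to 3 fragments, which is 0.00953 to 0.0147 FPKM for Erbb4 depending on the library. Ret, the kinase that GFRα1 engages, was at 0 in all 9 libraries, where 3 fragments would be 0.0210 to 0.0325 FPKM. Both genes were left out of the test by the filter on low values, and neither was detectable at this depth beyond those limits. Limits of this kind cover counting error only.

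Gfra1 encodes the GDNF co-receptor, and its level was 8.44, 7.31 and 7.91 FPKM in Con, 7.41, 7.82 and 7.52 FPKM with TNF-α, and 7.83, 7.15 and 7.77 FPKM with TNF-α+WBT. The 3 groups overlapped, and the log2 fold change with TNF-α was −0.05, with a 95% interval of −0.21 to 0.11 (adjusted p = 0.797 by limma). The ratio of Gdnf to Gfra1 was 2.32 to 2.83 in Con, 1.62 to 1.72 with TNF-α alone and 1.67 to 1.78 with TNF-α+WBT. The co-receptor thus had its transcript in every library beside that of its ligand, while Ret was not detected.

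The comparison of TNF-α+WBT with TNF-α asks what the tablet adds in stimulated cultures. It uses the same TNF-α libraries as the comparison with Con, so the results are not independent. In limma, 1 of 25417 genes (0.00393%) passed at an adjusted p under 0.05 in either direction, 1605 had an unadjusted p under 0.05, and 284 (1.12%) passed the second rule, 127 higher and 157 lower. By the second rule 7 were higher and 1 lower at a pseudocount of 1, 279 and 360 at 0.01, 9 and 5 with a filter at a mean of 1 FPKM, and 290 and 275 with voom, and 250 were lower without TNF-α library 2. In place of the 1 gene at an adjusted p under 0.05, 0 passed without Con library 2 or TNF-α+WBT library 1, 2 without Con library 3 or TNF-α library 2 or 3, 3 without TNF-α library 1, 4 without TNF-α+WBT library 3 and 11 without TNF-α+WBT library 2. Of the 9 members, 0 passed at an adjusted p in limma, 0 of the 7 tested had an unadjusted p under 0.05 and 0 passed the second rule. The median log2 fold change was −0.00 over the tested members and −0.00195 over all tested genes. Erbb3 was higher in all 3 TNF-α+WBT libraries than in all 3 TNF-α libraries, with a log2 fold change of 0.08 (adjusted p = 0.830 by limma). Without a difference, such a separation in either direction has a probability of 0.1, and its share among all genes was not counted. For Nrg1 the log2 fold change was −0.17, with a 95% interval of −0.47 to 0.13 (adjusted p = 0.880). The other members gave log2 fold changes of 0.06 for Gdnf, 0.01 for Hbegf, −0.02 for Erbb2, −0.07 for Egfr and −0.00 for Gfra1.

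The comparison of TNF-α+WBT with Con shows the joint treatment and shares libraries with both others. Of 25417 genes tested in limma, 586 (2.31%) were higher, 356 (1.40%) were lower at an adjusted p under 0.05, 3745 had an unadjusted p under 0.05, and 325 (1.28%) were higher by the second rule. Among the 9 members, Nrg1 was higher by both rules and Gdnf was lower at an adjusted p under 0.05. The median log2 fold change was −0.05 over the tested members and −9.18e-05 over all tested genes. Nrg1 rose to 2.51 ± 0.223 FPKM (SD, n = 3 libraries), 2.21 times Con, with a log2 fold change of 1.08 (adjusted p = 0.00248). That log2 fold change was 0.72 with a pseudocount of 1 in place of 0.1 and 0.98 without Con library 1, both under a fold of 2, so Nrg1 then passed by adjusted p but not by the second rule. The second rule gave 71 higher genes at a pseudocount of 1, 540 at 0.01, 108 with a filter at a mean of 1 FPKM and 627 with voom. Gdnf fell to 13.2 ± 0.488 FPKM (SD, n = 3 libraries), 1.53-fold lower, with a log2 fold change of −0.61 (adjusted p = 0.000466). The mean of Erbb3 was 51.4 ± 0.182 FPKM (SD, n = 3 libraries), 1.15-fold below Con, with a log2 fold change of −0.20 (adjusted p = 0.0527), and did not pass. Over 20 alternatives its adjusted p ran from 0.0240 to 0.221, and it passed in 6 of them. It passed with a pseudocount of 1, a filter at a mean of 1 FPKM, median centring and voom (adjusted p = 0.04998, 0.0332, 0.0477 and 0.0240), and leaving out Con library 1 or TNF-α library 3 gave log2 fold changes of −0.24 and −0.20 with adjusted p of 0.0440 and 0.0442. Of all genes, 362 were higher and 226 lower without Con library 3.

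**Figure D2:**
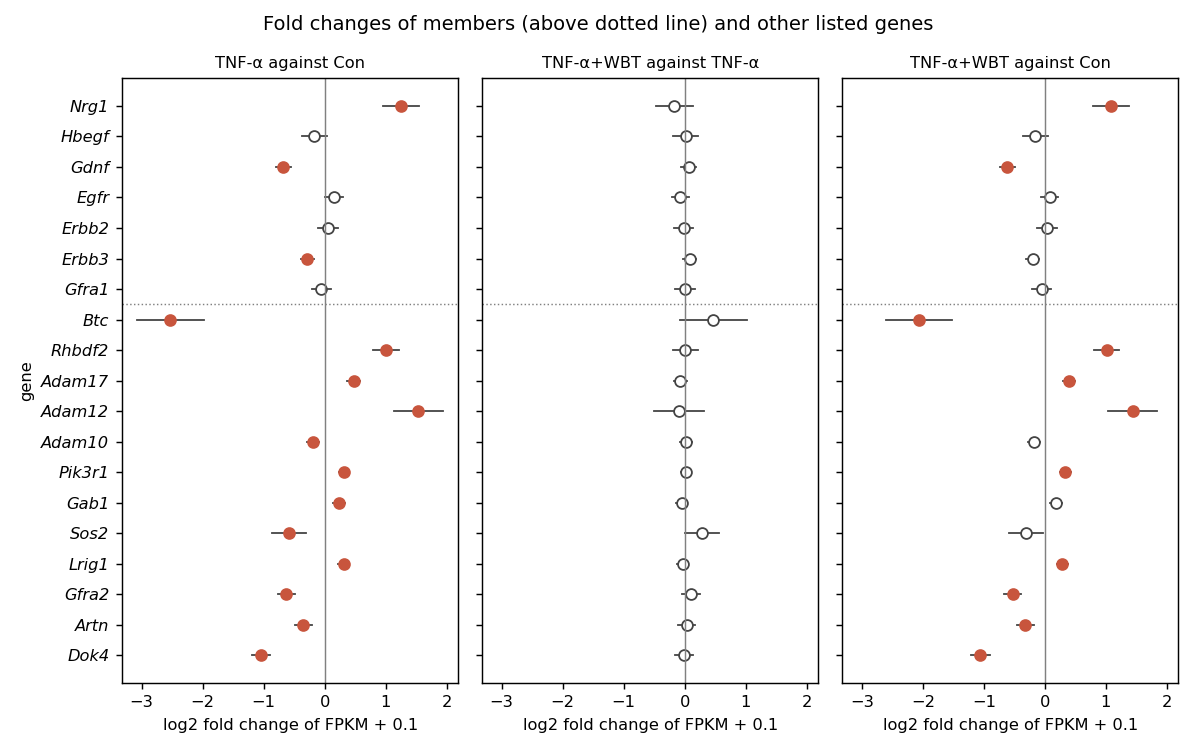
Log2 fold change with its 95% interval on the log2(FPKM + 0.1) scale for the 7 tested members (above the dotted line) and 12 other genes of the pathway (below it), 1 panel for each of the 3 comparisons. Filled red points have an adjusted p under 0.05, and no gene shown is filled for TNF-α+WBT against TNF-α.

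Transcripts of the members were compared in the same way. Of 47 annotated transcripts of the 9 genes, 28 could be tested. In limma over 80149 transcripts, 314 were higher and 195 (0.243%) lower with TNF-α than in Con at an adjusted p under 0.05, and the higher count was 199 without Con library 3 and 204 without TNF-α library 3. When WBT was added to TNF-α, 34 (0.0424%) passed, 14 higher and 20 lower. Those counts became 28 and 30 without Con library 1, 24 and 22 without Con library 3, 28 and 29, 23 and 33, and 30 and 41 without TNF-α libraries 1, 2 and 3, and 22 and 22, 39 and 31, and 33 and 28 without TNF-α+WBT libraries 1, 2 and 3. With TNF-α+WBT against Con, 215 were higher and 150 (0.187%) lower. Gdnf-201, the sole annotated Gdnf transcript, passed among the 28 in both comparisons with Con. Its log2 fold changes were −0.68 (adjusted p = 0.00521) and −0.61 (adjusted p = 0.0102) by limma. With the replicate number in the model it passed in neither. At an unadjusted p under 0.05 the 28 gave 6 transcripts for TNF-α against Con, 0 for TNF-α+WBT against TNF-α and 4 for TNF-α+WBT against Con, where 8.14%, 5.17% and 7.67% of all tested transcripts met that threshold. Erbb3-201, also the sole annotated transcript of its gene, had the gene's values and an adjusted p of 0.0774 among transcripts with TNF-α.

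Nrg1 has 18 annotated transcripts, which start at separate places along the gene. Those that start between 32009109 and 32009491 (8 transcripts, 6 of them protein-coding) held most of the FPKM assigned to annotated transcripts, 93.1% in Con, 86.5% with TNF-α alone and 93.7% with TNF-α+WBT. Their sum was 0.767, 0.848 and 1.17 FPKM in Con, 1.68, 2.65 and 1.55 FPKM with TNF-α, and 1.85, 2.36 and 2.18 FPKM with TNF-α+WBT. All 6 libraries of treated cultures lay above the Con libraries, and the ratio of the TNF-α mean to the Con mean was 2.11. The 6 transcripts that start between 31917650 and 31918391 were at 0 in all Con libraries, at 0.252, 0 and 0.299 FPKM with TNF-α, and at 0 except for 0.0567 FPKM in library 3 with TNF-α+WBT. The far upstream starts at 32883862 and 32884029 had 0 FPKM in 8 of the 9 libraries and 0.0185 FPKM in TNF-α+WBT library 3.

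Nrg1-203, of 5415 bases and starting at 32009109, held a larger part of the group means than any other Nrg1 transcript, 28.5% in Con, 40.2% with TNF-α alone and 37.0% with TNF-α+WBT. Its level was 0.251, 0.218 and 0.384 FPKM in Con, 0.979, 0.851 and 0.906 FPKM with TNF-α, and 0.765, 0.874 and 0.890 FPKM with TNF-α+WBT. The libraries of treated cultures were all above those of Con, and the log2 fold change with TNF-α was 1.42 (adjusted p = 0.0657 over all transcripts by limma). Nrg1-210, from a start nearby, went from 0.0141 to 1.13 FPKM between libraries of the TNF-α group, and its share was 22.4% in Con, 17.4% with TNF-α alone and 18.0% with TNF-α+WBT. It lay above Nrg1-203 in Con library 2 (0.434 FPKM) and TNF-α library 2 (1.13 FPKM), and Nrg1-214 lay above Nrg1-203 in Con library 3 (0.445 FPKM), so the split between transcripts that share exons is uncertain. Over the 9 libraries, Nrg1-206 ran from 0.0814 to 0.306 FPKM, Nrg1-213 from 0 to 0.362 FPKM and Nrg1-214 from 0 to 0.539 FPKM. The annotated transcripts added up to 73.4% to 98.0% of the Nrg1 gene value, against 100% for the other expressed members.

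**Figure D3:**
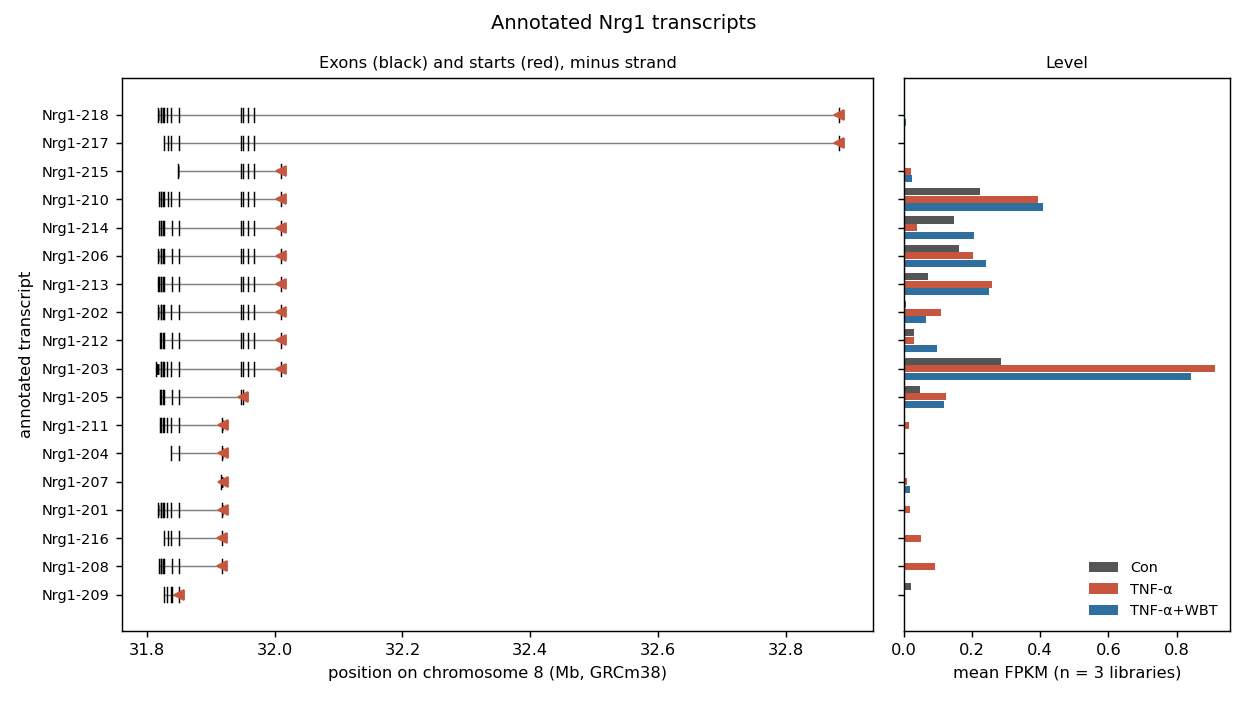
Exons of the 18 annotated Nrg1 transcripts along chromosome 8 (position in GRCm38, minus strand) beside the mean FPKM of each transcript in the 3 groups (bars, n = 3 libraries each). Most FPKM belongs to transcripts that start near 32009451.

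The other expressed members were each led by 1 or a few transcripts. For Erbb2 the transcript with the largest share was Erbb2-202, annotated as a processed transcript without a coding sequence, of 4431 bases in 26 exons, with 78.9% in Con, 76.4% with TNF-α alone and 81.0% with TNF-α+WBT. The coding transcript Erbb2-201, of 5012 bases in 27 exons, held 20.2%, 20.7% and 17.5%, at 1.39 to 2.18 FPKM over the 9 libraries. Erbb2-201 runs from 98412470 to 98437716 and Erbb2-202 from 98412493 to 98437077. They span nearly the same interval, so the split between them is uncertain. Egfr-201 held 76.5%, 79.5% and 83.7% of the Egfr sum in the Con, TNF-α and TNF-α+WBT groups. Egfr-202 was at 2.26, 1.81 and 2.58 FPKM in Con, 2.02, 0.442 and 3.62 FPKM with TNF-α, and 0.596, 0.742 and 1.92 FPKM with TNF-α+WBT, with overlap of the TNF-α libraries with both other groups. Gfra1-209 held 61.2%, 63.2% and 59.7% of the Gfra1 sum, beside 19.6%, 14.4% and 15.4% for Gfra1-203 and 15.7%, 16.1% and 19.7% for Gfra1-204. Hbegf-201 held 96.9%, 96.5% and 96.8% of the Hbegf sum.

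The rest of the pathway was read from 6 lists with 69 genes, of which 65 could be tested. In limma, 6 were higher and 6 lower with TNF-α than in Con. For TNF-α+WBT against TNF-α, 0 passed, and 5 had an unadjusted p under 0.05, as did 1605 of all 25417 tested genes. With TNF-α+WBT, 5 were higher and 4 lower than in Con. Of all tested genes, 2.94% were higher and 1.93% lower with TNF-α than in Con, and 2.31% and 1.40% with TNF-α+WBT than in Con, which is the background for the counts of each list. The median log2 fold changes were −0.03, 0.02 and −0.02 in these 3 comparisons. Without the intensity trend the calls of Adam10, Gab1, Sos2 and Artn described here were lost, and so was that of Lrig1 for TNF-α+WBT against Con. With only the compared groups in the model, those of Adam10 and Gab1 were lost, and that of Artn for TNF-α+WBT against Con. With the replicate number in the model, the calls of Adam10 and Gab1 were lost, and those of Artn in both comparisons with Con.

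Of 9 other ErbB ligand genes, 8 were tested and Btc was lower in both comparisons with Con. Btc encodes betacellulin, a ligand of EGFR and ERBB4, and it was the most abundant gene of its list. Its level was 8.82, 6.65 and 10.1 FPKM in Con, 1.57, 1.66 and 0.995 FPKM with TNF-α, and 1.89, 2.43 and 1.59 FPKM with TNF-α+WBT. The Con libraries lay far above the other 6. The mean was 6.06-fold lower with TNF-α (log2 fold change −2.53, adjusted p = 0.00045) and 4.33-fold lower with TNF-α+WBT (log2 fold change −2.06, adjusted p = 0.00189). Nrg3, a further neuregulin, was at 0 in all 9 libraries.

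Of 7 genes for the shedding of ErbB ligands from the membrane, 3 rose and 1 fell with TNF-α, and 3 rose with TNF-α+WBT against Con. Adam17 encodes the main sheddase of several EGFR ligands, and went from 15.4, 15.5 and 15.7 FPKM in Con to 21.4, 20.8 and 22.6 FPKM with TNF-α and 20.7, 21.02 and 19.8 FPKM with TNF-α+WBT. Rhbdf2 encodes iRhom2, which carries ADAM17 to the cell surface, and went from 7.46, 6.66 and 5.88 FPKM to 14.3, 13.7 and 12.3 FPKM and to 13.7, 13.2 and 13.6 FPKM. Adam12, a further metalloprotease, went from 0.499, 0.816 and 0.627 FPKM to 1.92, 2.18 and 2.00 FPKM and to 1.86, 1.95 and 1.88 FPKM. For each of these 3 genes all libraries of treated cultures lay above all Con libraries. With TNF-α the folds were 1.39 for Adam17 (adjusted p = 0.000464), 2.02 for Rhbdf2 (adjusted p = 0.000362) and 3.15 for Adam12 (adjusted p = 0.00148). With TNF-α+WBT against Con the log2 fold changes were 0.40, 1.01 and 1.44 (adjusted p = 0.00154, 0.000427 and 0.00266). With a pseudocount of 1 the log2 fold change of Adam12 went from 1.54 to 0.89 with TNF-α and from 1.44 to 0.82 with TNF-α+WBT.

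Adam10 encodes the relative of ADAM17 that sheds betacellulin and EGF, and its mean fell from 56.8 ± 1.85 FPKM in Con to 49.6 ± 1.47 FPKM with TNF-α (SD, n = 3 libraries each), a log2 fold change of −0.19 (adjusted p = 0.0404). That call was lost without any 1 of the 3 Con libraries, the 3 TNF-α libraries or TNF-α+WBT library 3, with log2 fold changes of −0.22 to −0.17 and adjusted p of 0.0595 to 0.136. It was lost as well without a filter on low values. Rhbdf1, the relative of Rhbdf2, was the most abundant gene of the list at a mean of 76.6 FPKM.

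Of 25 genes for adaptors and kinases downstream of the receptors, 2 rose and 1 fell with TNF-α, and 1 rose with TNF-α+WBT against Con. Pik3r1, which encodes the regulatory subunit p85α of PI3-kinase, went from 23.7 ± 0.862 to 29.5 ± 0.228 FPKM with TNF-α and 29.9 ± 0.201 FPKM with TNF-α+WBT (SD, n = 3 libraries each), with log2 fold changes of 0.32 and 0.34 (adjusted p = 0.00148 and 0.00133). Gab1, a docking protein for PI3-kinase and SHP2, rose from 28.7 to 33.8 FPKM on average with TNF-α, a log2 fold change of 0.23 (adjusted p = 0.0156). The Gab1 call was lost without Con library 1, TNF-α library 1 or TNF-α library 3, with log2 fold changes of 0.20 to 0.23 and adjusted p of 0.0502 to 0.0607. Sos2, an exchange factor for Ras, fell from 8.97 to 5.95 FPKM on average with TNF-α, a log2 fold change of −0.59 (adjusted p = 0.0300). The Sos2 call was lost without any 1 of the 3 Con libraries, TNF-α library 2 or 3, or TNF-α+WBT library 1, with log2 fold changes of −0.63 to −0.50 and adjusted p of 0.0518 to 0.101. In the voom model the log2 fold change of Sos2 was −0.29, and its adjusted p over 19 alternatives ran from 0.0160 to 0.121. Mapk3, the ERK1 gene, was the most abundant of the list at 103.7 FPKM.

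Of 12 genes that attenuate ErbB signalling, 1 rose in each comparison with Con. Lrig1 encodes a membrane protein that lowers ErbB receptor levels, and went from 46.6 ± 0.915 FPKM in Con to 58.0 ± 2.63 FPKM with TNF-α and 56.6 ± 1.06 FPKM with TNF-α+WBT (SD, n = 3 libraries each). Its log2 fold changes were 0.31 and 0.28 (adjusted p = 0.00243 and 0.00556). The adjusted p of the second over 19 alternatives ran from 0.00201 to 0.0661. Erbin, which encodes an ERBB2-binding protein, was the most abundant of this list at 60.3 FPKM.

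Of 10 further genes for GDNF family ligands and receptors, 8 were tested and 2 fell in each comparison with Con. Gfra2 encodes the co-receptor for neurturin, with 11.6, 11.9 and 10.7 FPKM in Con, 7.42, 7.07 and 7.45 FPKM with TNF-α, and 7.95, 8.18 and 7.48 FPKM with TNF-α+WBT. Its Con libraries lay above all others, with log2 fold changes of −0.63 and −0.53 (adjusted p = 0.000602 and 0.00219). Artn encodes artemin, the ligand of GFRα3 and the most abundant gene of the list, with 33.8, 38.6 and 34.9 FPKM in Con, 28.1, 28.1 and 27.7 FPKM with TNF-α, and 30.9, 26.97 and 28.1 FPKM with TNF-α+WBT. Its Con libraries also lay above all others, with log2 fold changes of −0.35 and −0.32 (adjusted p = 0.0148 and 0.0282). The first Artn call was lost without any 1 of the 3 TNF-α libraries (log2 fold changes of −0.35 to −0.34, adjusted p of 0.0507 to 0.0595). The second was lost without Con library 2 or 3, any 1 of the 3 TNF-α libraries, or TNF-α+WBT library 2 or 3 (log2 fold changes of −0.34 to −0.26, adjusted p of 0.0518 to 0.0958). Gfra3, the co-receptor for artemin, was at 0 in all 9 libraries.

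Of 6 genes for adaptors that bind RET, 5 were tested and 1 fell in each comparison with Con. Dok4 encodes a docking protein of activated RET, with 11.0, 10.6 and 10.5 FPKM in Con, 5.17, 4.91 and 5.34 FPKM with TNF-α, and 5.44, 4.91 and 4.94 FPKM with TNF-α+WBT. The Con libraries lay far above the other 6, the mean was 2.08-fold lower with TNF-α, and the log2 fold changes were −1.04 and −1.06 (adjusted p = 4.35e-05 and 5.6e-05). Of the exon bases of Dok4, 31.2% overlap Polr2c on the opposite strand, and the part of that overlap in the values was not tested. Grb10, a further adaptor, was the most abundant of this list at 30.7 FPKM, and Dok5 was at 0 in all 9 libraries.

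Over the 9 libraries, the genes most like each member were found by Pearson correlation of log2(FPKM + 0.1) among 12683 genes. Nrg1 was most like C1s1, Tapbp and Cgn (each r = 0.99). C1s1, a complement protease gene, averaged 17.3 FPKM in Con, 50.04 FPKM with TNF-α and 45.2 FPKM with TNF-α+WBT. Gdnf was most like Nefl, Fam19a5 and Postn (each r = 0.99), and Erbb3 was most like Git1, Notch1 and Aatk (r = 0.98, 0.98 and 0.97). The others were Bach2, Habp4 and Rpl37rt for Erbb2 (0.98, 0.94 and 0.91), Ndufa8, Irs1 and Malat1 for Egfr (0.94, 0.94 and 0.93), Capn2, Avpi1 and Gm7993 for Hbegf (0.98, 0.92 and 0.91), and Mrps6, Rps16-ps2 and Efna5 for Gfra1 (0.95, 0.94 and 0.92). All of these correlations share the 9 libraries and their treatments, and are given as a description.

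Marker genes of cell types moved with the treatment as well. The Schwann cell list, 9 of whose 14 genes lay above 1 FPKM throughout and none at 0 in all libraries, summed to 507 to 517 FPKM in Con, 354 to 399 FPKM with TNF-α and 392 to 419 FPKM with TNF-α+WBT. In it Ngfr, S100b, Cdh19 and Foxd3 were lower and Pou3f1 was higher with TNF-α, with log2 fold changes of −0.80, −1.28, −0.71, −0.26 and 0.98, and the counts against Con were again 4 and 1 with TNF-α+WBT. Of all tested genes, 2.94% were higher and 1.93% lower with TNF-α against Con, and 2.31% and 1.40% with TNF-α+WBT against Con. The fibroblast list had 2 genes higher and 1 lower with TNF-α against Con. With TNF-α+WBT against Con it had 0 higher and 1 lower in limma. There 4 of its 10 tested genes had an unadjusted p under 0.05, as did 3745 of all 25417 tested genes. Its sum was 1801 to 1956 FPKM in Con, 2039 to 2062 FPKM with TNF-α and 1943 to 1998 FPKM with TNF-α+WBT, and Lum was at 0. The neuron list had 1 of 7 genes above 1 FPKM, Tubb3, which was lower with TNF-α, and its sum was 53.5 to 57.9 FPKM in Con, 15.6 to 16.8 FPKM with TNF-α and 19.3 to 22.3 FPKM with TNF-α+WBT, with Rbfox3, Elavl4 and Stmn2 at 0.

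The remaining lists of cell type markers stood lower. The macrophage sum was 5.96 to 7.29 FPKM in Con, 6.93 to 7.93 FPKM with TNF-α and 7.09 to 8.18 FPKM with TNF-α+WBT. The oligodendrocyte list had 1 of 5 genes above 1 FPKM, Olig2, which was lower with TNF-α, and its sum was 3.21 to 3.47 FPKM in Con, 1.62 to 2.02 FPKM with TNF-α and 2.24 to 2.49 FPKM with TNF-α+WBT, with Mag and Mobp at 0. The melanocyte list had 1 of 6 genes above 1 FPKM, Mitf at 1.31 FPKM, with Tyr and Tyrp1 at 0. The epithelial list had 0 of 6, led by Krt8 at 0.736 FPKM, and the enteric neural crest list had 0 of 3, led by Hand2 at 0.242 FPKM. All 8 genes that every cell uses lay above 1 FPKM, led by Eef1a1 at 5682 FPKM. The part of these markers in the changes of Nrg1, Gdnf and Erbb3 was not tested.

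RefSeq promoters on GRCm38.p6, 250 bases before to 50 bases after a start, were found for 5 of the 9 members (Erbb2, Erbb4, Egfr, Gdnf and Gfra1) in 6 windows. Nrg1, Erbb3, Hbegf and Ret had no entry. Both strands of each window were searched for the κB consensus, the AP-1 motif TGANTCA, the CRE TGACGTCA, the GC box GGGCGG, the TATA box TATAAA and the SOX motif ACAATG. Of all 32851 promoters of 27025 genes, 8.46%, 7.81%, 1.79%, 35.7%, 13.6% and 12.6% held these motifs in that order. Among the 6 member windows, 1 held the κB consensus (Gfra1), 1 the GC box (Egfr) and 1 the TATA box (Gdnf), and none held the other 3. A match is a description of letters and not of a bound site.

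The windows of Gdnf and Artn, 2 ligand genes that fell with TNF-α, and that of Gfra1, whose product binds GDNF and which did not pass, are printed 5′ to 3′ on the gene's strand with motif matches in capitals. Gdnf has 2 windows on the plus strand, chr15:7809798-7810097, with a TATA box 31 bases before its start, and chr15:7813477-7813776, with no match. Their starts, 7810048 and 7813727, differ from 7810846, the start of Gdnf-201. The Artn window is chr4:117929714-117930013 on the minus strand, with 2 GC boxes that read on the other strand, 50 and 30 bases before the start. The Gfra1 window is chr19:58455349-58455648 on the minus strand, with a κB consensus match 134 bases before the start. That start, 58455398, is the one of Gfra1-201, which held 0.441%, 1.02% and 0.345% of the Gfra1 sum in the Con, TNF-α and TNF-α+WBT groups, while the leading Gfra1-209 starts at 58454466.
Gdnf, first window: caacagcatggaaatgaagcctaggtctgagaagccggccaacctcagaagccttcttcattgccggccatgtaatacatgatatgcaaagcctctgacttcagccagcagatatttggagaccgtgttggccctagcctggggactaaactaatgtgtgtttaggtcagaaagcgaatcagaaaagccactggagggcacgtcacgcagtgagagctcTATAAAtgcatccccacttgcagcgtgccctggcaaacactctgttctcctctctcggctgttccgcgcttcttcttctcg
Gdnf, second window: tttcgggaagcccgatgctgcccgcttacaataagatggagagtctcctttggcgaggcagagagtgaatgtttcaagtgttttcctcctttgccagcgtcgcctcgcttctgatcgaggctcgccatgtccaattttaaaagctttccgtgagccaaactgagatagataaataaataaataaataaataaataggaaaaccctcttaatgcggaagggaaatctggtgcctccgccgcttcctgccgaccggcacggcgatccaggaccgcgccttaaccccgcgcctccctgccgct
Artn: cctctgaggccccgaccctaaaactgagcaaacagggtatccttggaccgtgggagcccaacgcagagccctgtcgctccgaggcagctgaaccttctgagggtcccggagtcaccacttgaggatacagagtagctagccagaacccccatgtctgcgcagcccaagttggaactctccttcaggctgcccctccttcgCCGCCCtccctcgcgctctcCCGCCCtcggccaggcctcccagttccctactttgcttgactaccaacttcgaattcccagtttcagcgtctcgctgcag
Gfra1: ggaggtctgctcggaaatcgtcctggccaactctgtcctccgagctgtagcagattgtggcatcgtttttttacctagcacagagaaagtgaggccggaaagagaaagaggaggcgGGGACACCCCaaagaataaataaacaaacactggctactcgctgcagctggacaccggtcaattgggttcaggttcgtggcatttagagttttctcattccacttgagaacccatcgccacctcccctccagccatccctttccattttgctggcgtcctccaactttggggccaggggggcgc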

How the data were processed

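Values are FPKM per gene and per transcript, deposited by the authors for each library. A drawing of the procedure in the study names HISAT2, StringTie and Ballgown, and versions and the genome build are not given in the sources used here. Symbols matched 98.0% of genes, and positions and transcript lengths came from GENCODE M21 (GRCm38). Depth was estimated from the spacing of low values, where each fragment is 1 step, at 20352000 to 26154000 fragments in Con, 18998000 to 22446000 with TNF-α alone and 16918000 to 20015000 with TNF-α+WBT. Of low values, 49.7% to 55.9% per library lay within 0.1 of a whole fragment (20.0% if uniform), so fragments are approximate.

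Genes or transcripts above 0 FPKM in at least 3 of 9 libraries were tested two-sided on log2(FPKM + 0.1) with limma 3.58.1 in R 4.3.3 (lmFit, contrasts.fit, eBayes with trend), with 1 mean per group over all 9 libraries and 6 residual degrees of freedom. Benjamini-Hochberg adjustment covered all genes or transcripts tested.

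The members, pathway lists, marker lists and tests were chosen with earlier results of these data known. Named genes were all members, up to 5 genes per pathway list at an adjusted p under 0.05 in any comparison, the most abundant gene per list, the 3 genes most like each member with a mean of at least 1 FPKM, and transcripts with at least 10% of a member's FPKM in any group. Alternatives covered the pseudocount, filter, trend, normalization, the groups in the model, the replicate number, summed transcripts, voom and each library left out. Some marker genes are not reported here and were left out of their lists. Measurements other than RNA sequencing were not used here.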

Additional observations from a re-analysis of the deposited data

How the results depend on the processing

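Over 20 alternatives Nrg1 and Gdnf passed in both comparisons with Con each time, with log2 fold changes for TNF-α against Con of 0.84 to 1.36 and −0.73 to −0.64. Of the results for members that passed, 99 kept their side of the threshold and 1 did not (Erbb3 without the trend, adjusted p = 0.0744). Of the results for members that had not passed, 302 stayed there, 8 passed and 10 changed sign. For other named genes that passed, 358 kept the call and 41 lost it. Of those for other named genes that had not passed, 53 stayed there and 4 passed, Adam10 and Gab1 for TNF-α+WBT against Con with a filter at a mean of 1 FPKM (adjusted p = 0.0494 and 0.0416) and with voom (0.0239 and 0.0354).

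The number of genes passing for TNF-α+WBT against TNF-α, 1 at first, was 11 with a pseudocount of 0.01, 7 without the trend, 2 with only the compared groups or with summed transcripts, 0 with the replicate number in the model, 5 with voom and 0 to 11 with 1 library left out. For TNF-α against Con, 1236 genes passed, and 828 to 1100 did with 1 library left out. For TNF-α+WBT against Con, 942 genes passed, and 588 to 817 did with 1 library left out. Members passing there went from 2 to 4 with voom (Egfr, Erbb3, Gdnf and Nrg1) and were 2 to 3 with 1 library left out. With the replicate number in the model, 0 member transcripts passed in either comparison with Con, against 1 (Gdnf-201) in each without it, and Adam10 and Gab1 for TNF-α against Con and Artn in both comparisons with Con did not pass. Over all transcripts it gave 133 higher and 76 lower for TNF-α against Con, 1 and 0 for TNF-α+WBT against TNF-α, and 95 and 52 for TNF-α+WBT against Con. With only the compared groups, higher genes for TNF-α+WBT against Con went from 586 to 385, and transcripts went to 202 higher for TNF-α against Con and to 122 higher and 99 lower for TNF-α+WBT against Con. Transcripts for TNF-α+WBT against TNF-α were 8 higher and 10 lower at a pseudocount of 1, and 26 and 45 at 0.01. With voom, lower genes were 811 for TNF-α against Con and 558 for TNF-α+WBT against Con. The cause was not tested.

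Signs changed for small values of TNF-α+WBT against TNF-α. That of Nrg1 was 0.00956 from summed transcripts. With 1 library left out, Erbb2 ran from −0.0776 to 0.0236, Hbegf from −0.0401 to 0.0831 and Gfra1 from −0.0237 to 0.0410, and Erbb2 in TNF-α+WBT against Con ran from −0.00246 to 0.0753. The cause was not tested.

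Libraries with the same replicate number were not more alike: 0 of 9 correlations of residuals over 12686 genes exceeded 0.1 (−0.067 to 0.095), so the numbers were not treated as pairs. Depth limits what can be said of Nrg1 transcripts, Erbb4 and Ret, all at low values.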
